A study of Mus musculus with 64 samples.

Results

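Integrin subunits and laminin chains were followed in mouse pancreatic tumor cells grown alone or with fibroblasts. The 37 genes are 18 integrin alpha subunits, 8 integrin beta subunits and 11 laminin chains, taken by symbol from the 39017 genes of the tumor count table. The cells are 8 lines labelled as murine pancreatic tumor cells on a mixed C57BL/6 background. Of these lines, 7 are clones that the study derived from 1 mouse pancreatic tumor whose alleles include Trp53 R172H and Pdx1-Cre, and KPC1 is a further line whose origin is not given in the sources used here. The study placed E, H and V in group 1 and K, M, N and T in group 2 from their metabolites, and KPC1 is in neither group. The clones share the alleles of this tumor, so they are not samples of several mice. Each line has 4 libraries from mono-culture and 4 from 48 h of coculture with fibroblasts, after which tumor cells were recovered by their GFP in a fluorescence-activated sort. The labels do not say whether mono-cultures passed the same sort, nor whether the 4 libraries were separate cultures, so p-values within a line measure the spread between libraries, which may be technical.

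Integrins are cell surface receptors made of 1 alpha and 1 beta subunit, and they tie the matrix outside the cell to the actin or keratin cytoskeleton inside it. Laminins are trimers of 1 alpha, 1 beta and 1 gamma chain, and they form the sheet of the basement membrane on which epithelial cells sit. In the pancreas, ductal cells rest on laminin, and in ductal tumors cells also meet collagen and fibronectin deposited by fibroblasts. Itga3, Itga6 and Itga7 encode laminin receptors, Itga1, Itga2, Itga10 and Itga11 collagen receptors, and Itga5, Itga8, Itgav and Itga2b receptors for ligands with an RGD peptide such as fibronectin and vitronectin. Itgb1 pairs with most of these alpha subunits, Itgb4 pairs with Itga6 alone in the hemidesmosome, and Itgb3, Itgb5, Itgb6 and Itgb8 pair with Itgav.

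The 64 libraries hold 11178721 to 21333683 counts each, with a median of 15648009.5. Levels are CPM (counts scaled to the library size with TMM factors) for comparisons of 1 gene between samples, and RPKM from the authors' table, which corrects for gene length, for comparisons between genes. A total of 3 counts over the 4 libraries of a line, used as the floor, corresponds to 0.0425 to 0.0565 CPM. Among the epithelial markers Krt8 and Krt18 stood at 688 CPM or more in every line of mono-culture, while Epcam was at most 0.370 CPM and Cdh1 ranged from 0.998 to 304 CPM. The 4 defining fibroblast markers Dcn, Fap, Postn and Thy1 summed to 0.0134 to 0.0743 CPM over the lines in mono-culture and to 56.7 to 97.4 CPM in coculture, and all 4 of 4 passed the test upward. Of the full list of 20 fibroblast genes, which summed to 439 to 2400 CPM in mono-culture and 1051 to 2922 CPM in coculture, 14 rose and 1 fell of 18 tested, and 2 were at 0 counts in mono-culture. In bulk libraries a few cells of another type and a low level in every cell cannot be told apart.

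The results turn most on a pair of laminin beta chains, so their promoters are shown here (RefSeq, GRCm38.p6, 250 bases before to 50 bases after the transcript start). The promoter table holds 23 of the 37 genes. Capitals mark GGGCGG on either strand, the GC box, and CCAAT.

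Lamb1, chr12:31265043-31265342, plus strand: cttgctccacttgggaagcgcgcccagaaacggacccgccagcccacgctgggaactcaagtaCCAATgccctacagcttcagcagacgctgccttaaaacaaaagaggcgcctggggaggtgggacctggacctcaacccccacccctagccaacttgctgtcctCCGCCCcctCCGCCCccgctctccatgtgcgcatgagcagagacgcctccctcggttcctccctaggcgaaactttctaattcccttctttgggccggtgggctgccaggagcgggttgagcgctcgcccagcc

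Lamb2, chr9:108479612-108479911, plus strand: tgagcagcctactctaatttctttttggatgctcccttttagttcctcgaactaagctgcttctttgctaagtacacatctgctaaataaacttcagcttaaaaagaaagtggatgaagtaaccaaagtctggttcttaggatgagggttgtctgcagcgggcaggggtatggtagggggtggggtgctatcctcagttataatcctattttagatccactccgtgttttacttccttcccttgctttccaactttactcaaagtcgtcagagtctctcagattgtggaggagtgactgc

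In GENCODE M21 on the same build Lamb1 spans chr12:31265234-31329644 and Lamb2 chr9:108479736-108490530, both on the plus strand, with no other gene over their exons. The Lamb1 window has 63.7% G and C, 18 CpG dinucleotides, 2 GC boxes (both read as CCGCCC on the plus strand) and 1 CCAAT. The Lamb2 window has 44% G and C, 4 CpG and neither motif. Over all 32851 promoters of the same length the medians are 52.7% and 7 CpG, and 35.7% hold a GC box on either strand and 37.4% hold CCAAT. Of the 26 promoter windows of the 23 genes, 12 hold a GC box, 4 hold CCAAT and 0 hold TATAAA, which 13.6% of all promoters hold. These letters are a description of the windows, and no binding was measured.

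Of the 37 genes, 19 reached a mean of 1 RPKM in at least 1 line and culture, and 18 did not. Between 14 and 17 genes reached it per line in mono-culture and between 15 and 19 in coculture. The set was dominated by few subunits in each class, on the RPKM scale. Among the alpha subunits, Itga3 made up 43.7 to 62.5% of the summed RPKM over the lines in mono-culture, Itgav 14.96 to 22.8%, Itga6 10.3 to 29.5% and Itga5 3.89 to 8.65%. Among the beta subunits, Itgb1 made up 31.1 to 50.1% and Itgb5 26.3 to 49.96%, ahead of Itgb4 with 1.53 to 17.2%, Itgb7 with 0.560 to 10.99% and Itgb3 with 3.54 to 10.43%. Lama5, the alpha chain of most adult epithelial basement membranes, made up 99.82 to 99.98% of laminin alpha chain RPKM in mono-culture and 99.3 to 99.7% in coculture. Lamc1 made up 92.5 to 96.7% of the gamma chains in mono-culture. The laminin beta chains were the exception, with Lamb1 at 29.3 to 87.9% and Lamb2 at 11.7 to 70.6% depending on the line.

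**Figure D1:**
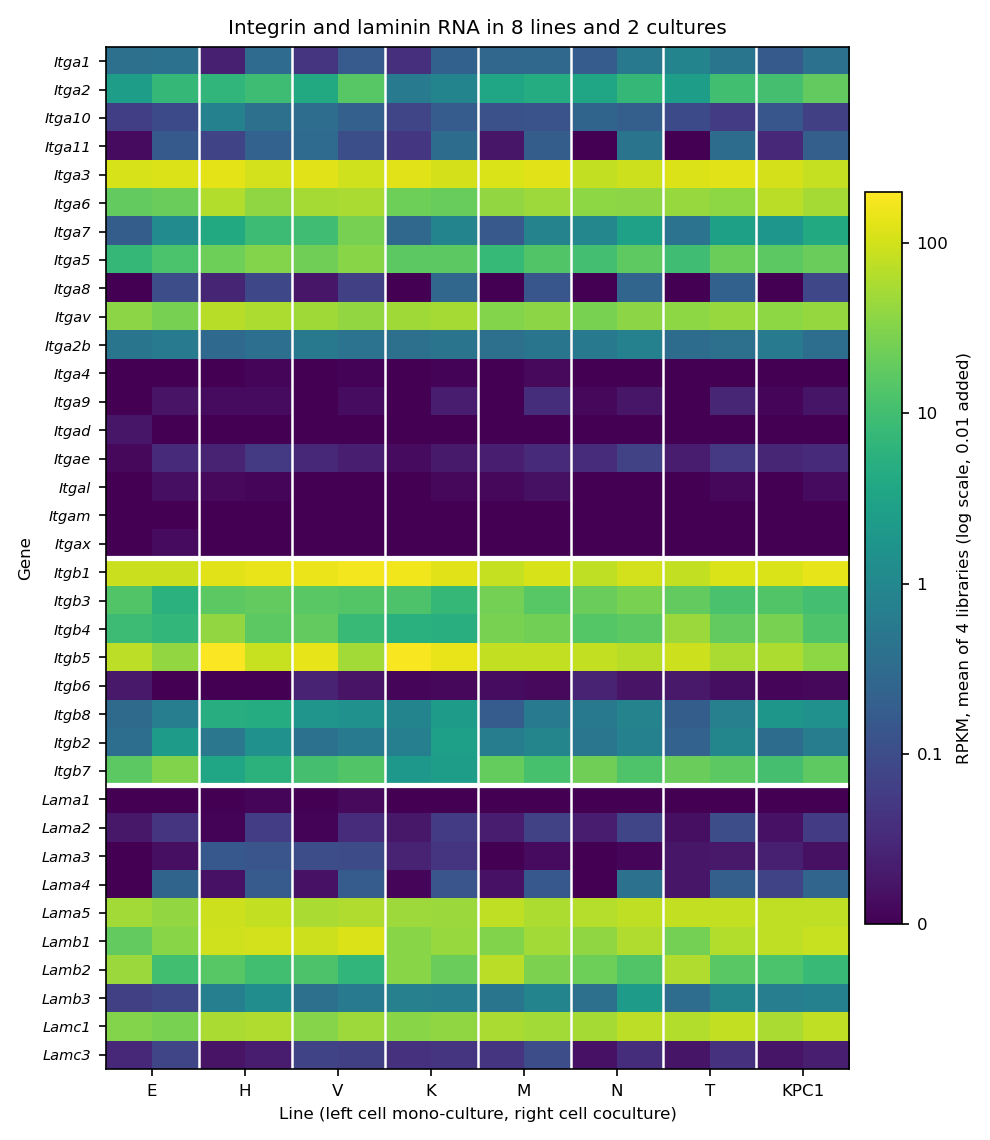
Mean RPKM of integrin and laminin genes (rows: integrin alpha, integrin beta and laminin chains) in the 8 lines (columns: left cell mono-culture, right cell coculture, 4 libraries each), as color on a log scale with 0.01 added. Itga3, Itgb1, Itgb5, Lama5 and Lamc1 were high in every column, while Itga7, Itgb7, Itgb8 and Lamb2 differed by line.

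The genes that stayed low include those of blood cells. Itga4, Itga9, Itgad, Itgal, Itgam, Itgax, Itgb6 and Lama1 were at or below 0.297 CPM in each of the 32 mono-culture libraries, and Itgax and Lama1 had 0 counts in all of them. Itgae, the alpha partner of Itgb7 in intraepithelial lymphocytes, was at most 0.693 CPM in any mono-culture library. Itga4, the other partner of Itgb7, had 5 counts in all 32 mono-culture libraries and 5 in all 32 coculture libraries. Itgb7 itself ranged from 3.31 to 84.1 CPM over the mono-culture libraries, with a median of 38.7 CPM. Of 10 leukocyte marker genes 9 are in the count table, summing to 28.1 to 102 CPM over the lines in mono-culture and 33.8 to 78.6 CPM in coculture, with 2 and 3 of them at 0 counts. The pan-leukocyte marker Ptprc was at most 0.0612 CPM in mono-culture and 0.118 CPM in coculture. The 2 that could be tested were Cd14, which fell (18.9 to 83.3 CPM over the lines in mono-culture, 21.8 to 40.8 CPM in coculture, log2 -0.56 ± 0.16, edgeR adjusted p = 0.0188), and Cd68, a lysosomal gene used as a macrophage marker, which rose (3.91 to 18.5 CPM in mono-culture, 11.8 to 40.5 CPM in coculture, log2 1.37 ± 0.35, edgeR adjusted p = 0.0108). Of the low genes, 68.7% of the exon bases of Itgam and 33.5% of those of Itga10 lie in another gene on the same strand, so their counts are uncertain.

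Levels differed among the 8 lines in mono-culture for 27 of the 28 genes tested in edgeR's quasi-likelihood test over 64 libraries, Itgae being the other. The background was high, since 95.1% of all 14134 genes tested passed the same test. The span was narrow for the dominant subunits and wide for others. Itga3 ranged from 481 CPM in N to 843 CPM in H, Lama5 from 605 CPM in K to 1172 CPM in H, and Itgb1 from 321 CPM in N to 726 CPM in K. Itga6 ranged from 179.9 ± 38 CPM (SD, n = 4) in E to 708 ± 114 CPM in KPC1, and Itgav from 295 CPM in N to 807 CPM in H.

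Itga7 (chr10:128933818-128958282, plus strand), a laminin receptor subunit best known from muscle, ranged from 0.652 ± 0.079 CPM (SD, n = 4) in M to 39.8 ± 8.1 CPM in V. Clone H followed V with 18.03 CPM and KPC1 with 7.63 CPM, and the other lines stood between 0.652 and 3.96 CPM. M, E and K could not be ordered, since the 4 libraries of M (0.591 to 0.765 CPM) lay within those of E (0.372 to 1.19 CPM) and of K (0.417 to 1.82 CPM). Itgb8, which pairs with Itgav in the activation of latent TGF-beta, ranged from 1.98 CPM in M to 58.1 CPM in H, with T at 2.08 CPM beside M. Itgb4 was lowest in K, at 38.5 CPM, and highest in T and H, at 307 and 289 CPM, which overlapped.

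Lamb1 and Lamb2 split the lines in opposite order. Lamb1 stood at 1082 CPM in H, 994 CPM in V and 819 CPM in KPC1, against 193 to 392 CPM in E, T, M, K and N. Lamb2 stood at 101 CPM in H, 80.7 CPM in V and 76.1 CPM in KPC1, against 141 to 469 CPM in the other 5 lines. Lamb1 libraries of H, V and KPC1 (607 to 1137 CPM) did not overlap those of the other 5 lines (150.4 to 457 CPM), while for Lamb2 they overlapped those of N. On the RPKM scale Lamb1 exceeded Lamb2 by 6.43 to 7.54 times in H, V and KPC1 (geometric mean of 4 libraries), the ratio was 1.91 in N and 1.02 in K, and Lamb2 exceeded Lamb1 in E, M and T, with ratios of 0.412, 0.439 and 0.423.

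Coculture was first compared with mono-culture over the 8 lines, each line serving as its own control (counts summed over its 4 libraries, edgeR quasi-likelihood test, adjusted p under 0.1). Of the 37 genes, 28 could be tested and 9 reached the minimum level in too few lines and cultures. Of those tested, 14 rose, 4 fell and 10 did not pass. For all 14478 genes tested, 54.6% passed, 27.2% upward and 27.4% downward, and the members' counts are to be read against that. The median log2 fold change was 0.50 over the 28 genes and -0.00 over all genes tested. Itga8, Lama4, Itga11, Lama2 and Lamc3 reached the minimum level (0.159 CPM) in 1 to 4 of 8 lines in mono-culture and in 6 to 8 in coculture, so they could be tested mainly through their coculture levels. All 5 are among the 14 that rose, and without them 9 of 23 genes rose and 4 fell, with a median of 0.17, beside 25.6% upward and 28.4% downward of all 13964 genes left by the same criterion. The p-values of these 5 genes carry that limit.

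**Figure D2:**
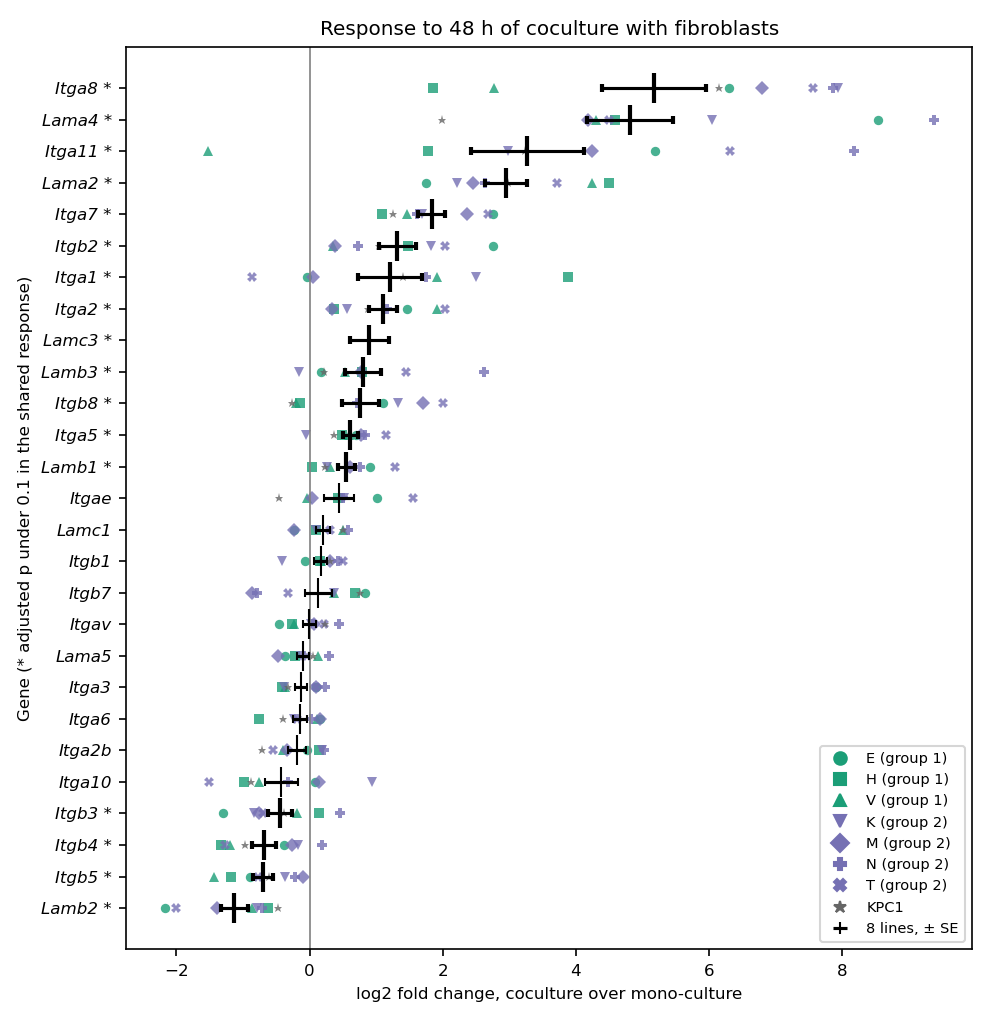
Log2 fold change, coculture over mono-culture, of tested genes: vertical ticks with bars give the fit over 8 lines ± SE, colored symbols give the single lines and stars beside the names mark an adjusted p under 0.1 (Lamc3 has no symbols because it was tested only over all lines). Lamb2 and Itgb5 lie below 0 in all 8 lines and Itga7, Itga8, Lama2 and Lama4 above 0 in all 8.

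Of the laminin beta chains, Lamb1 and Lamb2 moved in opposite directions. Lamb2, which replaces Lamb1 in the laminins of mature basement membranes such as those of muscle and kidney, fell, and Lamb1 rose. Lamb2 levels over the 32 mono-culture libraries had a lowest value of 70.0, a median of 179.8 and a highest value of 571 CPM, against 35.1, 71.5 and 212 CPM in coculture. In clone E the 4 mono-culture libraries were at 271, 270.05, 253 and 343 CPM, and the 4 coculture libraries at 40.95, 114, 55.7 and 41.3 CPM. In clone T they were at 303, 425, 332 and 571 CPM, against 136, 76.7, 68.5 and 125 CPM. All 4 coculture libraries lay below all 4 mono-culture libraries in every line but N, where both sets overlapped. Of all genes tested, both sets were apart for 45.5% in E, 36.3% in H, 48.6% in V, 19.3% in K, 38.4% in M, 22.4% in N, 48% in T and 23.6% in KPC1. The shared log2 fold change of Lamb2 was -1.13 ± 0.20 (SE, 8 lines; edgeR adjusted p = 0.00284), and single lines ranged from -2.17 in E to -0.47 in KPC1, the 1 line in which it did not pass.

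Lamb1 had a lowest value of 150.4, a median of 384 and a highest value of 1137 CPM over the 32 mono-culture libraries, against 257, 691 and 1479 CPM in coculture. In clone T the 4 mono-culture libraries were at 283, 275, 327 and 220.2 CPM and the 4 coculture libraries at 699.9, 683, 707 and 604 CPM, with no overlap. In clone H, the highest in mono-culture, the sets overlapped and the log2 difference was 0.03 ± 0.18 (SE, n = 4 and 4). The shared log2 fold change of Lamb1 was 0.55 ± 0.13 (edgeR adjusted p = 0.00787), and it passed in E, M, N and T and not in H, V, K and KPC1. In V all 4 coculture libraries still lay above all 4 mono-culture libraries (log2 difference 0.31 ± 0.18), while in N, where it passed, the libraries overlapped. Lamb1 was at or below 456 CPM in every mono-culture library of the 4 lines where it passed, and K, with a mean of 385 CPM, did not pass at 0.26 ± 0.18. A change contains the mono-culture level itself, so level and change are not independent.

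The ratio of Lamb1 to Lamb2 RPKM was higher in coculture in 8 of 8 lines, by a mean of 1.67 ± 1.05 on the log2 scale (SD, n = 8), from 0.63 in H to 3.31 in T. An exact two-sided sign-flip permutation test over the lines gave p = 0.007812, the smallest that 256 sign patterns allow, and the ratio was chosen after its values had been seen. The fitted changes of Lamb1 were above 0 and those of Lamb2 below 0 in all 8 lines. The outcome of the sign-flip test was thereby fixed, and it adds nothing to the 2 tests above. In E the ratio went from 0.412 to 3.73, in M from 0.439 to 1.73 and in T from 0.423 to 4.20, so that Lamb1 was the higher chain in all 8 lines in coculture. In V, where it was highest, it went from 7.54 to 16.9. The share of Lamb2 among the laminin beta chains went from 11.7 to 70.6% over the lines in mono-culture to 5.57 to 36.6% in coculture. Lamb3, the beta chain of the hemidesmosome laminin, was at most 1.03% of them in mono-culture and 2.93% in coculture.

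**Figure D3:**
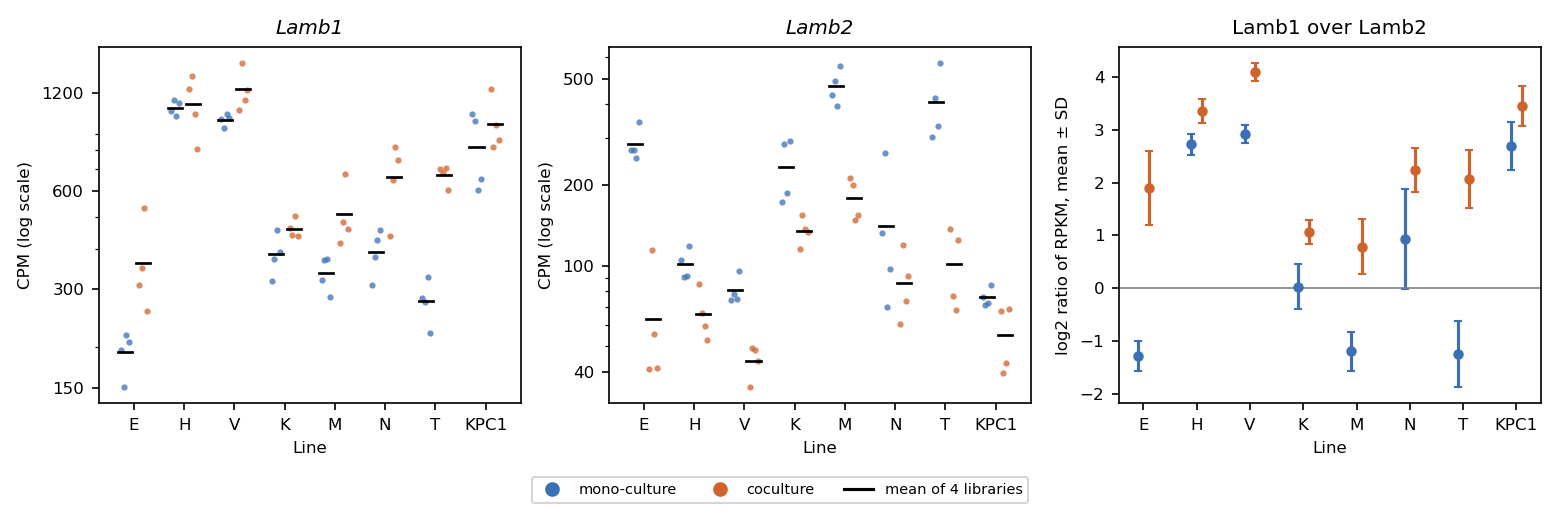
CPM (log axis) of Lamb1 and of Lamb2 in each of 4 libraries per line in mono-culture and coculture, and the log2 ratio of their RPKM as mean ± SD of 4 libraries. The mean of Lamb2 is lower and the ratio higher in coculture in all 8 lines, and the ratio crosses 0, where both chains are equal, in E, M and T.

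The other common laminin chains moved less. Lama5 had a shared log2 fold change of -0.10 ± 0.09 and Lamc1 of 0.20 ± 0.11, and neither passed (edgeR adjusted p = 0.385 and 0.152). In single lines Lama5 fell in E and M, by 0.37 and 0.48 on the log2 scale, and Lamc1 rose in N, V and KPC1, by 0.50 to 0.58. Lamb3 rose by 0.80 ± 0.28 (edgeR adjusted p = 0.0371), and clone N led, with 1.65, 1.93, 3.51 and 3.35 CPM in mono-culture against 11.2, 14.6, 15.7 and 22.5 CPM. Its partner chain Lama3 was not tested in the shared fit and stood at a mean of 0.450 CPM in mono-culture and 0.468 CPM in coculture.

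Lama4 and Lama2, the alpha chains of vessel and of muscle or nerve basement membranes, were near 0 in mono-culture and low but present in coculture. Over 8 lines Lama4 had 82 counts in 32 mono-culture libraries and 1353 in 32 coculture libraries, or 0.157 and 2.74 CPM, a ratio of 17.5. Clones E and N had 0 Lama4 counts in mono-culture, against 171 and 325 in coculture, which is at least 69.2-fold and at least 94.6-fold higher against the floor of 3 counts over the 4 libraries. KPC1 stood apart in mono-culture at 0.854 ± 0.24 CPM (SD, n = 4), with every other line at or below 0.105 CPM. Lama2 went from 65 to 476 counts, or 0.129 to 0.983 CPM, a ratio of 7.63. Fitted log2 fold changes were 4.82 ± 0.65 for Lama4 (edgeR adjusted p = 0.00117) and 2.95 ± 0.32 for Lama2 (edgeR adjusted p = 0.000433), and at such counts they depend on the prior count of the fit. Lamc3 rose by 0.90 ± 0.29 (edgeR adjusted p = 0.0301), from 83 to 133 counts over all lines.

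Among the laminin receptors, only Itga7 of 3 passed. Itga7 rose in each of the 8 lines, and all 4 coculture libraries lay above all 4 mono-culture libraries in every line. The lowest, median and highest values were 0.372, 2.86 and 49.6 CPM over the 32 mono-culture libraries and 2.02, 12.4 and 114 CPM in coculture. In V, the highest line, it went from 49.6, 35.1, 43.04 and 31.6 CPM to 107, 107, 114 and 114 CPM, and in E from 0.786, 1.19, 0.591 and 0.372 CPM to 4.35, 3.70, 7.40 and 4.16 CPM. The lines thus kept levels far apart in coculture, at 3.38 CPM in M and 110.4 CPM in V. The shared log2 fold change was 1.84 ± 0.20 (edgeR adjusted p = 0.000499), from 1.09 in H to 2.75 in E. Itga3 and Itga6, far higher on the RPKM scale, did not pass in the shared test, at -0.12 ± 0.09 and -0.14 ± 0.10, and fell in single lines, Itga3 in H and V and Itga6 in H (log2 -0.77 ± 0.22).

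**Figure D4:**
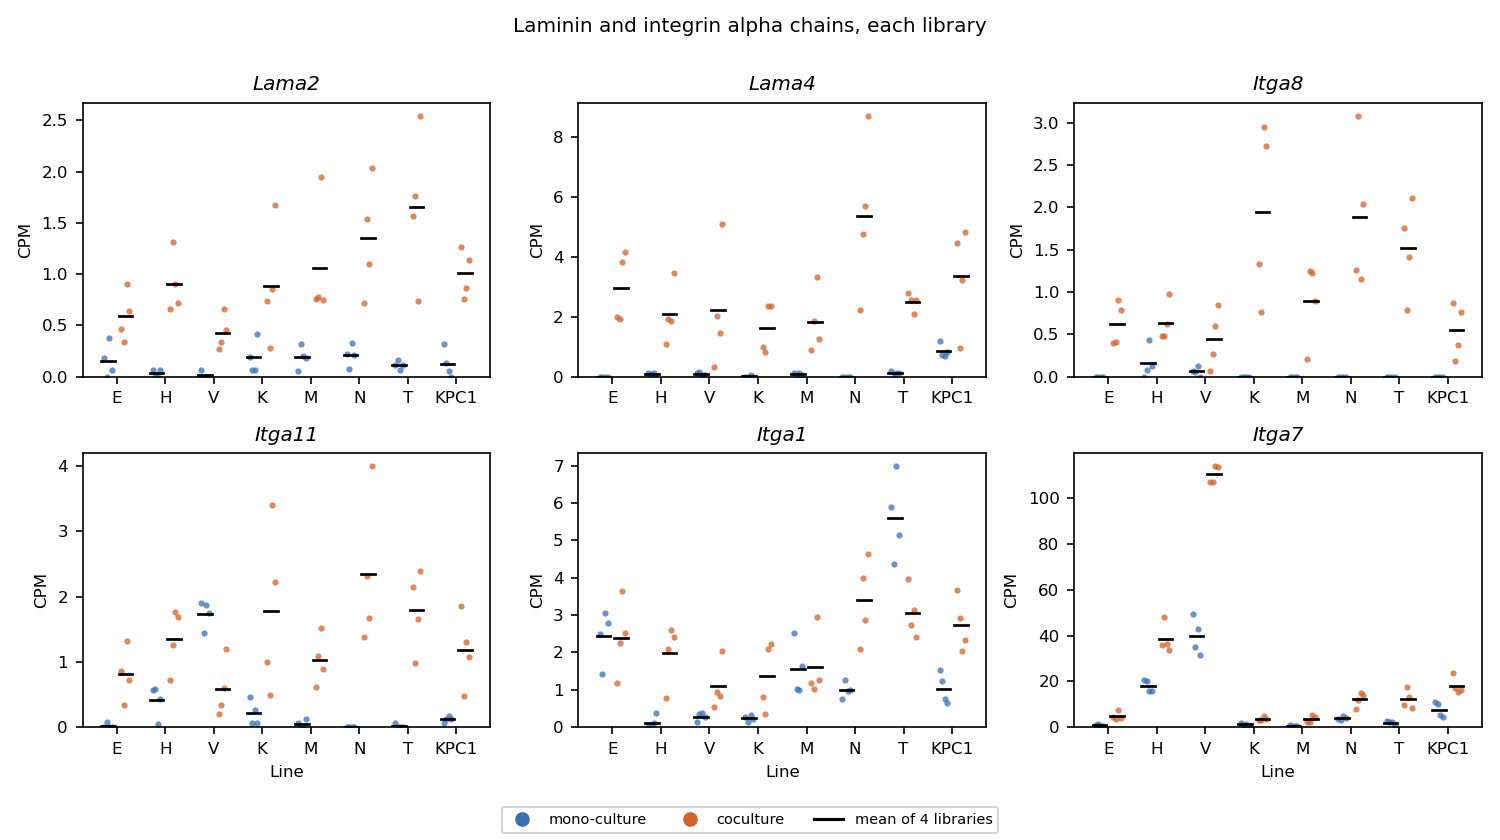
CPM (linear axes) of Lama2, Lama4, Itga8, Itga11, Itga1 and Itga7 in each library (points) of the 8 lines in mono-culture and coculture, with the mean of 4 libraries as a bar. Itga7 coculture libraries lie above the mono-culture libraries in every line, while Itga11 in V moves the other way.

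Of the 4 collagen receptors, Itga2, Itga1 and Itga11 rose and Itga10 did not pass, at -0.42 ± 0.25 (edgeR adjusted p = 0.196). Itga2, the main epithelial collagen receptor, had lowest, median and highest values of 2.07, 14.9 and 73.7 CPM in mono-culture and 2.29, 36.8 and 142 CPM in coculture, a shared log2 fold change of 1.11 ± 0.21 (edgeR adjusted p = 0.00346). In T its 4 mono-culture libraries were at 8.53, 10.3, 10.7 and 14.9 CPM and its coculture libraries at 46.3, 40.98, 67.2 and 26.7 CPM. It passed in E, V, N, T and KPC1, with libraries apart in E, V and T and overlapping in N and KPC1. In H, K and M the libraries overlapped and the log2 differences were 0.34 to 0.56. Itga1 rose by 1.21 ± 0.48 (edgeR adjusted p = 0.0655), a call that was lost in 9 of 20 alternative settings.

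Itga11, a collagen receptor typical of fibroblasts, had 163 counts in mono-culture and 667 in coculture over the 8 lines, or 0.320 and 1.36 CPM. Clone N had 0 counts in mono-culture and 139 in coculture, at least 41.4-fold higher. Clone V was the highest in mono-culture, with 1.90, 1.44, 1.87 and 1.74 CPM, and it fell to 0.201, 0.338, 0.603 and 1.19 CPM, all 4 below. The shared log2 fold change was 3.27 ± 0.85 (edgeR adjusted p = 0.0120), and in V alone it was -1.52 ± 0.49.

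Among the RGD receptors, Itga5 and Itga8 rose, while Itgav (-0.00 ± 0.10) and Itga2b, the platelet subunit (-0.19 ± 0.14), did not pass. Itga5, the fibronectin receptor subunit, had lowest, median and highest values of 31.7, 57.8 and 121 CPM in mono-culture and 46.6, 92.7 and 178 CPM in coculture, a shared log2 fold change of 0.61 ± 0.11 (edgeR adjusted p = 0.00312). In T the 4 mono-culture libraries were at 44.4, 48.3, 44.3 and 46.03 CPM and the coculture libraries at 103, 99.8, 105 and 97.5 CPM. It passed in every line but K, where the difference was -0.06 ± 0.14. Itga8 had 15 counts in all mono-culture libraries, with 26 of 32 libraries at 0, and 517 in coculture, or 0.0276 and 1.06 CPM. Its 6 lines with 0 counts in mono-culture (E, K, M, N, T and KPC1) were at least 12.01-fold (KPC1) to at least 38.3-fold (K) higher in coculture. The fitted log2 fold change of Itga8 was 5.18 ± 0.78 (edgeR adjusted p = 0.00162).

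The 3 beta subunits that fell were Itgb5, Itgb4 and Itgb3, whereas Itgb1, the common partner, did not pass at 0.17 ± 0.10 (edgeR adjusted p = 0.176). Itgb5, a vitronectin receptor subunit with Itgav, had lowest, median and highest values of 186, 329 and 871 CPM in mono-culture and 92.1, 230.4 and 619.6 CPM in coculture. In V its 4 mono-culture libraries were at 539.7, 561, 409 and 532 CPM and its coculture libraries at 189, 213, 155 and 195 CPM. The shared log2 fold change was -0.70 ± 0.14 (edgeR adjusted p = 0.00460), negative in 8 of 8 lines, with no overlap of libraries in 5 of them (E, H, V, T and KPC1). Itgb4 fell by 0.68 ± 0.18 on the log2 scale (edgeR adjusted p = 0.0127). In H it went from 275, 284, 259.6 and 339 CPM to 176, 116, 92.7 and 75.8 CPM. The 4 lines in which Itgb4 fell were H, V, T and KPC1, and in E, K, M and N the libraries overlapped and the log2 differences lay between -0.38 and 0.19.

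Itgb3 fell by 0.44 ± 0.18 on the log2 scale (edgeR adjusted p = 0.0679), a call that was lost in 9 of 22 alternative settings. Itgb8 rose by 0.76 ± 0.28 (edgeR adjusted p = 0.0446). In the 4 lines with the lowest Itgb8 in mono-culture (M, T, E and N) the log2 differences were 0.71 to 2.01 and each passed, as did K at 1.33, while H, V and KPC1, the highest, were at -0.26 to -0.14 and did not. As for Lamb1, the mono-culture level enters the change, so this order is not independent of it. Itgb2, the beta subunit of leukocyte integrins, rose from lowest, median and highest values of 0.467, 1.45 and 3.27 CPM to 1.08, 3.04 and 11.2 CPM, a log2 change of 1.32 ± 0.28 (edgeR adjusted p = 0.00521). In E its 4 mono-culture libraries were at 0.879, 1.42, 0.806 and 1.18 CPM and its coculture libraries at 8.23, 6.99, 4.89 and 8.38 CPM. Its leukocyte alpha partners Itgal, Itgam, Itgax and Itgad had 12 counts or fewer each over the 32 coculture libraries, while Cd68 rose beside Itgb2 and its part in the change was not tested. Itgb7 did not pass, at 0.13 ± 0.20, nor did Itgae, at 0.45 ± 0.23 (edgeR adjusted p = 0.617 and 0.132).

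**Figure D5:**
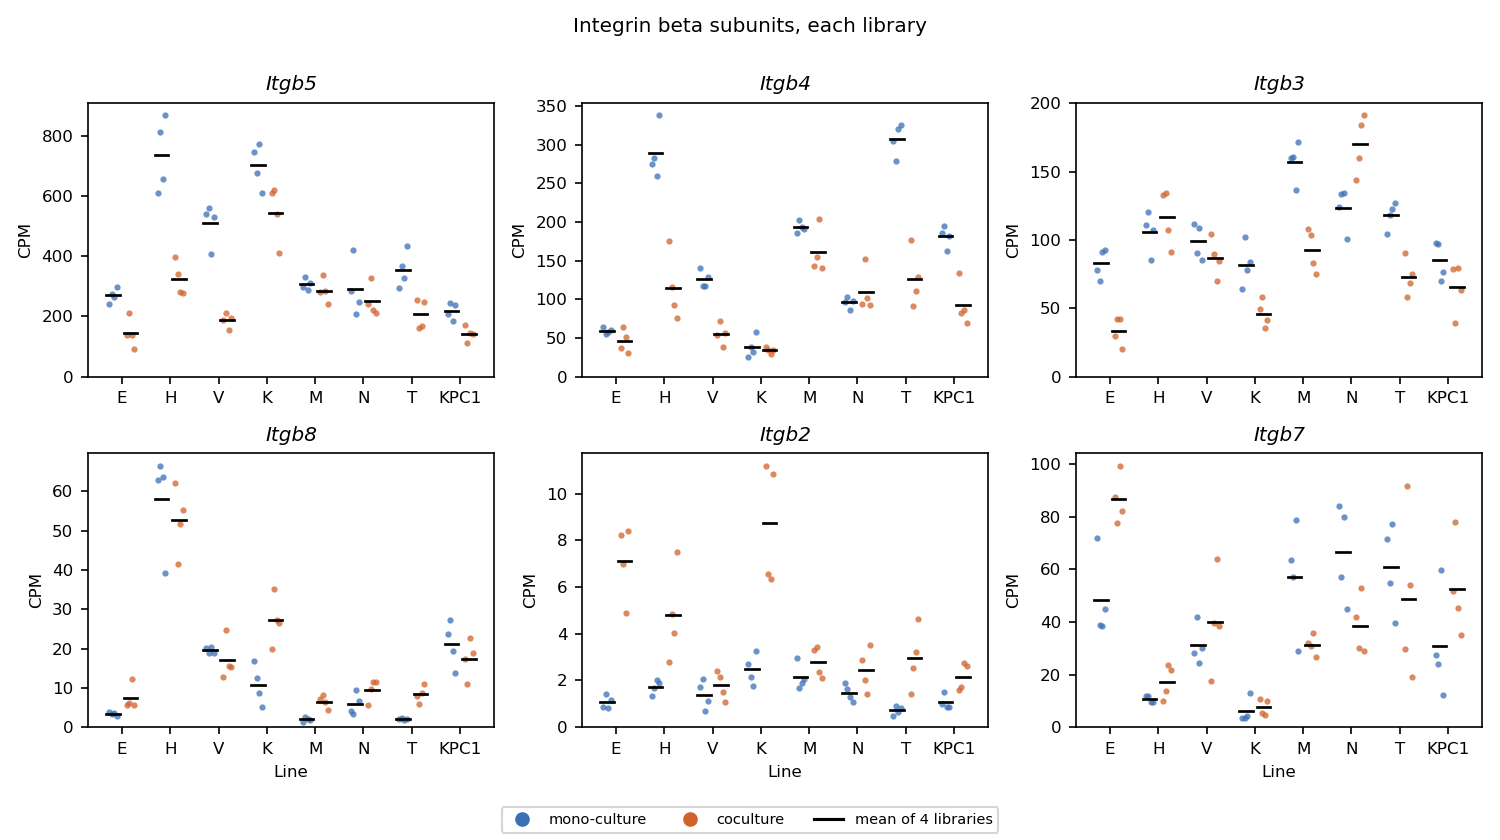
CPM (linear axes) of Itgb5, Itgb4, Itgb3, Itgb8, Itgb2 and Itgb7 in each library (points) of the 8 lines in mono-culture and coculture, with the mean of 4 libraries as a bar. Itgb5 coculture libraries lie below the mono-culture libraries in E, H, V, T and KPC1, and Itgb2 in E rises from a mean of 1.07 to 7.12 CPM.

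Within the coculture libraries, some of these genes followed the fibroblast markers. For the others the relation did not pass, which does not show that there is none. For 28 genes, the deviations of the 32 coculture libraries from their line mean (log2(CPM + 0.05)) were set against the mean deviation of Dcn, Fap, Postn and Thy1, with p from 100000 permutations within lines, adjusted over the 28 relations. The relation was strongest for Lama4 (r = 0.858, rho = 0.864, permutation adjusted p = 0.00014 and 0.00028), Itga8 (r = 0.828, rho = 0.79), Itga1 (r = 0.808, rho = 0.774), Itga11 (r = 0.8, rho = 0.81) and Lama2 (r = 0.709, rho = 0.702), with permutation adjusted p for r from 0.00014 to 0.00084 and for rho from 0.00028 to 0.00084. The unadjusted permutation p of Lama4 and Itga8 was 1e-05, the smallest these permutations can give. Without the 2 libraries farthest from the marker median r was 0.649 to 0.841 for these 5 genes, and within the 22 libraries with the lower library numbers it was 0.694 to 0.846. Itga5 followed with r = 0.486 and rho = 0.441 (permutation adjusted p = 0.0308 and 0.0899). Lama5 (r = 0.425, rho = 0.314) and Lamc1 (r = 0.424, rho = 0.332) also passed for r, each with a permutation adjusted p of 0.0835, but not for rho (permutation adjusted p = 0.266 and 0.244), and within the 22 libraries r was 0.197 and 0.141. The other 20 genes had permutation adjusted p of 0.144 or more for r, among them Itga7 (r = 0.376), Lamb1 (r = 0.266), Lamb2 (r = 0.148) and Itgb2 (r = -0.0315). The part of other cells in any of these changes was not tested, and the libraries share depth and normalization with the markers.

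Lines differed in their response for 25 of 28 genes (edgeR test with 7 degrees of freedom, all but Itgae, Lama2 and Lama3), against 71.3% of all genes tested. The smallest adjusted p belonged to Itga11 (2.161e-09), Itga1 (4.629e-07), Itgb3 (8.916e-07) and Itgb8 (9.037e-07). Itgb1 (7.706e-06), Itgb4 (1.303e-05) and Itgb2 (4.38e-05) were also among the genes with small adjusted p. Per line, between 12 genes in K and 21 in T passed. In N 17 of 28 genes rose and 1 fell (Lamb2), while of all genes 37.4% passed, 20% upward and 17.4% downward. In T 14 rose and 7 fell, beside 62.2% of all genes (31.5% up, 30.7% down). In E 13 rose and 5 fell, beside 61.3% (32.1% up, 29.2% down), and in V 9 rose and 6 fell, beside 61.5% (30% up, 31.5% down). In H 10 rose and 6 fell, beside 44% (21.4% up, 22.6% down), and in KPC1 11 rose and 4 fell, beside 39.2% (20.1% up, 19% down). In M 9 rose and 4 fell, beside 38.9% (21.6% up, 17.3% down), and in K 9 rose and 3 fell, beside 20.5% (12.5% up, 8.02% down). Itga8, Lama4, Itga11 and Lama2, at the minimum level mainly in coculture, are among the genes that rose in every line, except that Itga11 fell in V. The counts per line and the shares of all genes beside them were not repeated without such genes, so the upward counts carry that limit. In M and N same-numbered libraries were read as pairs, which the labels do not state. There a fit with the replicate block also called Lamb3 in M (0.83 ± 0.31, edgeR adjusted p = 0.0335, against 0.119 without the block) and Itgb7 in N (-0.79 ± 0.31, edgeR adjusted p = 0.0459, against 0.110), and no call was lost there. Of all genes it called 43.9% in M and 42.6% in N. In other lines the block also changed calls. It added, among others, Lamb2 in KPC1 and Lamb1, Itgb1 and Itga2b in V, and it lost Lama3 in E.

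Several integrins moved in opposite directions in different lines. Itgb3 fell in E, from 78.0, 70.3, 90.9 and 92.6 CPM to 29.5, 42.1, 42.3 and 20.4 CPM, and in K, M and T. In N it rose, from 124, 134, 134 and 101 CPM to 144, 160.2, 184 and 192 CPM, with no overlap in either. Itgb1 fell in K by 0.41 ± 0.10 on the log2 scale and rose in M, N, T and KPC1, by 0.31 to 0.50. Itga1 fell in T, from 5.90, 4.35, 6.98 and 5.15 CPM to 3.98, 2.74, 3.14 and 2.40 CPM, and rose in H, V, K, N and KPC1, all of them at or below 1.03 CPM in the mono-culture mean. The mono-culture level enters the change here too.

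Group 1 and group 2 clones were compared in mono-culture, with the clone as replicate (3 against 4). Of the 27 genes tested 0 passed in edgeR, as did 0% of all 14829 genes. An unadjusted p under 0.05 was found for 2 of 27 genes (7.41%), Itga7 and Itgb8, near the 5.17% of all genes. DESeq2 on the same sums called 0 of the 27 genes and 117 of all. There 5 of the 27 (Itga7, Itgb8, Itga10, Itga11 and Lamb1) had an unadjusted p under 0.05, beside 1069 of all 14829 genes. The mean of Itga7 was 19.5 ± 19.6 CPM over the 3 group 1 clones and 1.91 ± 1.46 CPM over the 4 group 2 clones (both ± SD). These overlapped, since E at 0.735 CPM lay below K, N and T (log2 difference 3.34 ± 1.15, edgeR adjusted p = 0.888). For Itgb8 the means were 27.1 ± 28.1 and 5.17 ± 4.15 CPM, also overlapping (2.38 ± 0.96, edgeR adjusted p = 0.888).

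Higher in group 1 by estimate, with the next smallest p, were Itga11 (3.29 ± 1.49), Lamb1 (1.13 ± 0.51) and Lama3 (3.54 ± 1.70), each with an edgeR adjusted p of 0.888. Genes lower by estimate included Lamb2 (-1.004 ± 0.57), Lama2 (-1.20 ± 0.75), Itgb3 (-0.32 ± 0.23) and Lamc1 (-0.33 ± 0.29), with edgeR adjusted p from 0.888 to 0.902. Clone E stood apart from H and V for Lamb1, at 193 CPM against 1082 and 994 CPM, and without E Lamb1 and Itga7 passed, at 1.58 (edgeR adjusted p = 0.0523) and 3.90 (edgeR adjusted p = 0.0970), in a fit that called 1.42% of all genes rather than 0%. Leaving out E was the only alternative setting that called them, of 19 for Lamb1 and 17 for Itga7. In coculture the levels of Lamb2 did not overlap between the groups, 44.1 to 66.0 CPM in group 1 and 86.1 to 179 CPM in group 2, and the edgeR test of the coculture libraries did not call it (log2 difference -1.10, adjusted p = 0.581). Itga8 also did not overlap there, at 0.447 to 0.639 CPM against 0.893 to 1.94 CPM. These were 2 of 29 genes (6.9%), beside 9.02% of all 14737 genes whose clone means did not overlap, and in mono-culture it was 0 of 27 beside 5.49% of all genes.

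The difference in response between the groups was tested with clone and culture in the model (edgeR, 14 sums). Of 29 genes 0 passed, against 0.00637% of 15700 genes, and 5 had an unadjusted p under 0.05, against 7.62% of all. The 3 smallest were Itgb5, with a response lower in group 1 by a log2 difference of -0.80 ± 0.20 (edgeR adjusted p = 0.569), Itgb7 (1.01 ± 0.29, edgeR adjusted p = 0.597) and Itgav (-0.49 ± 0.14, edgeR adjusted p = 0.597). DESeq2 called 2 of the 29, Itgb5 (-0.80, adjusted p = 0.0480) and Itga8 (-5.49, adjusted p = 0.0861), and 187 of all genes. For Itga8, which had 0 counts in mono-culture in all 4 group 2 clones, that fitted value is no measure of size. In mono-culture the mean of Itgb5 was 506 ± 234 CPM over the 3 group 1 clones and 414 ± 194 CPM over the 4 group 2 clones (± SD), and in coculture it was 219 ± 94.4 and 322 ± 152 CPM. Itgb7 rose in E and fell in M, from 63.4, 57.01, 78.7 and 29.1 CPM to 32.01, 30.98, 35.8 and 26.8 CPM, with overlap through 1 mono-culture library.

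The partners of these receptors inside and outside the cell were read from a list of 55 adhesion and basement membrane genes, of which 50 were tested. In the shared response 12 rose, 21 fell and 17 did not pass, with a median log2 fold change of -0.22, beside 27.2% upward and 27.4% downward of all genes tested. Of 29 adaptors and kinases at the integrin tail, 3 rose and 14 fell, among them the actin linker Parva (-0.59 ± 0.10, edgeR adjusted p = 0.00206) and the scaffold Pxn (-0.40 ± 0.08, edgeR adjusted p = 0.00449). Both hemidesmosome plakins tested, Plec and Dst, fell, as did the other laminin receptors Dag1 and Bcam. Of 9 other basement membrane genes 6 rose and 1 fell. The rise was largest for Nid2, a laminin linker at 3 counts or fewer per line in mono-culture and 11.8 to 27.8 CPM in coculture, and Agrn also rose (0.69 ± 0.10, edgeR adjusted p = 0.00140). Among 8 ligands 3 rose and 2 fell, with Tnc at 1.83 ± 0.36, Vcam1 at 0.74 ± 0.15, Icam1 at -0.70 ± 0.16 and Npnt, a ligand of Itga8, at -1.13 ± 0.10 (edgeR adjusted p = 0.00402, 0.00419, 0.00692 and 8.83e-05).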

How the data were processed

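Counts per gene were deposited by the authors, who per the labels used featureCounts on mm10 with polyA, strand-specific, paired-end libraries, and RPKM values were deposited beside them (edgeR is also named). The aligner, annotation version and strand setting of the counting are not given in the sources used here. The genes and lists were chosen with earlier results of these data known, and every member was named by its role, with full statistics for the largest shared changes, the smallest p-values between groups and between lines, and others chosen after their values were seen.

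Counts were tested with edgeR 4.0.16 (TMM, filterByExpr, quasi-likelihood, Benjamini-Hochberg over all genes tested, adjusted p under 0.1) in R 4.3.3. Counts of the 4 libraries of a line and culture were summed for comparisons across lines and groups, and the 64 libraries were fitted as 16 groups for comparisons within and between lines. DESeq2 1.42.0 and limma 3.58.1 on log2(RPKM + 1) served as alternatives. On simulated counts of 12577 genes the shared test recovered 100% of 2-fold changes, the group test 83% and the interaction 36%, where lines varied with an SD of 0.2 (natural log), and 5.21%, 12% and 13.5% of the calls were false. The genes described varied more, with SEs of 0.217 to 1.70 between groups (log2), so the power for them is lower than simulated. Same-numbered libraries of both cultures deviated together in all 4 pairs in M (r = 0.143 to 0.271) and N (0.345 to 0.44) and were read as pairs there, while in the other 6 lines at least 1 pair was at or below 0.1. Levels have error from 4 libraries. The 96 pairs of libraries within groups all differed beyond sampling noise (chi-square per gene 4.46 to 65.5). Positions are from GENCODE M21 and promoters from RefSeq, both GRCm38, the build of the files (mm10). Of 39017 gene IDs, 37607 were found in that annotation. Some items are not reported here.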

Additional observations from a re-analysis of the deposited data

Results flagged for a closer look

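Clones and lines were screened for single values far from the rest of a group of 4 to 10 values, a rule that chance meets in about 1 of 20 groups. Among 16 groups of library totals, 1 met it, with KPC1 coculture replicate 2 with 11178721 counts, where the nearest of the other 3 libraries had 16016171. Among 28 sets of mono-culture levels over the 8 lines, on the log2(CPM + 0.05) scale, 3 met it. Lamb3 was low in E, at -1.06, with the next line at 1.31. Lama4 was high in KPC1, at -0.15, with the next line at -2.69. Itga3 was low in N, at 8.91, with the next line at 9.34, although on the CPM scale the distance was from 481 to 648. Of 12 sets of responses over the lines, 0 met it.

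For 7 genes, the response to coculture passed in opposite directions in different lines, and the difference among lines passed in edgeR's test with 7 degrees of freedom. Itga11 rose in 7 lines and fell in V (edgeR adjusted p for the difference = 2.161e-09). Itga1 rose in H, V, K, N and KPC1 and fell in T (4.629e-07 by the same test). Itgb3 rose in N and fell in E, K, M and T (8.916e-07), and Itgb1 rose in M, N, T and KPC1 and fell in K (7.706e-06). Itga10 rose in K and fell in H, V, T and KPC1 (0.000524), with 33.5% of its exon bases shared with another gene. Itgb7 rose in E and fell in M (0.0114), and Itgav rose in N and fell in E (0.0181).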

How the results depend on the processing

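Over DESeq2, RLE factors, no count filter, the 0.05 threshold, and libraries, lines or the first sample sheet left out or kept alone, 16 to 18 of the 18 genes called in the shared response were called again. With limma on log2(RPKM + 1) or log2(RPKM + 0.1), 8 genes rose rather than 14, with 18 genes tested rather than 28. Of all 13106 genes tested there, 31.8% and 32% rose, rather than 27.2%. In each, 12 of the 18 genes passed, beside 55.8% and 56% of all. With libraries as replicates, 9 genes fell rather than 4 with the replicate block and 8 without it (added after the data were seen), and 25 and 24 genes passed, while of all genes 79% and 77.6% passed rather than 54.6%, 38.7% and 37.7% downward. With the block the within-line tests gave 141 calls. Of all genes, too, more passed in every line, from 20.5% without the block to 25.9% in K and from 62.2% to 64.9% in T. With the block 25 genes differed in response, beside 75.4% of all genes. Same-numbered libraries of a line correlated between -0.107 and 0.44, 22 of 32 pairs over 0.1 and 23 of 32 best with their own number, a hint of pairing. Every pair was over 0.1 in M and N alone. In V all 4 libraries were also best with their own number, with a lowest r of 0.0957. With the block KPC1 had 21 calls among the genes described rather than 15, and V had 18 rather than 15. Without clone E 2 genes differed between the groups rather than 0, with 1.42% of all genes called rather than 0%, and 2 differed in response by DESeq2 rather than 0, with 1.19% of all genes called rather than 0.00637%. In coculture libraries the group difference of Itga11 was -0.85, against 3.29 in mono-culture. The causes were not tested. Itga1 and Itgb3 lost their shared call in 9 settings each, with adjusted p up to 0.134 and 0.150 (edgeR or its alternatives), and Itgb8 in 1, without T (0.101).

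Sample sheets were inferred from library numbers (1 to 43 and 44 to 64), and K mono-culture lies wholly in the second, so the first sheet alone leaves out K. Depth limits the genes under about 1 CPM, where a fold rests on few counts. Between groups only 3 and 4 clones stand against each other.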
